A study of Mus musculus with 7 samples.

Results

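Polycomb repressive complex 2 (PRC2) is followed here through 10 genes in mouse primary myoblasts and the myotubes they form. The genes are Ezh1, Ezh2, Eed, Suz12, Rbbp4, Rbbp7, Phf1, Mtf2, Phf19 and Jarid2, taken by symbol from a deposited table of 37975 genes, of which 15966 were tested by the authors. All 10 symbols were found once each. Of these, 9 were tested, and Phf19 was listed without a test. They were listed for their place in the complex, by a rule that uses no measured value, though with earlier results of these data known.

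Satellite cells were sorted from muscle of mice aged 4 to 6 weeks and grown as primary myoblasts. Polyadenylated RNA was sequenced from empty-vector myoblasts in growth medium and from empty-vector myotubes after 48 hours in differentiation medium with 5% horse serum, so both groups carried an empty retroviral construct. MyoD, the basic helix-loop-helix factor of the muscle lineage, was mapped by ChIP (chromatin immunoprecipitation) in myotubes of day 2, in a sample whose label refers to an earlier deposit. Of 7 samples in 7 groups, the 4 with ChIP of histones were not analysed here, so the H3K27me3 mark itself has no value in what follows. None of the sources used here gives the strain of the mice.

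PRC2 places methyl groups on lysine 27 of histone H3, a mark of silent chromatin. EZH1 and EZH2 are alternative catalytic subunits: EZH2 is typical of dividing cells and the more active enzyme, and EZH1 is also found in resting and differentiated cells. EED binds the finished mark and stimulates the enzyme, SUZ12 is the scaffold, and RBBP4 and RBBP7 are histone-binding proteins that also serve in other chromatin complexes. PHF1, MTF2 and PHF19, the Polycomb-like proteins, define one form of the complex, and JARID2 with AEBP2 the other. In myoblasts, EZH2 is known for holding late muscle genes silent, and exchange of EZH2 for EZH1 has been described on differentiation.

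The start regions of the members are shown first, searched for E-boxes, the letters that MyoD binds, and for letters bound by E2F factors, which drive genes of dividing cells. All 10 members matched a window in the RefSeq promoter table (GRCm38.p6), 12 windows in all, each of 300 bases, 250 before and 50 after an annotated start. Windows were searched on both strands for E-boxes (CANNTG, and within these CAGCTG and CAGGTG) and for the E2F letters TTTGGCGC, TTTCCCGC, TTTCGCGC and TTTGCCGC. The first 270 bases are printed 5′ to 3′ in the direction of the gene for Ezh1, which holds a pair of CAGGTG E-boxes, and for the 3 members with an E2F match. Capitals mark E2F, CAGCTG and CAGGTG matches. The windows are chr11:101226444-101226713 (minus strand), chr6:47595011-47595280 (minus), chr11:79992856-79993125 (plus) and chr2:34913957-34914226 (minus).
Ezh1: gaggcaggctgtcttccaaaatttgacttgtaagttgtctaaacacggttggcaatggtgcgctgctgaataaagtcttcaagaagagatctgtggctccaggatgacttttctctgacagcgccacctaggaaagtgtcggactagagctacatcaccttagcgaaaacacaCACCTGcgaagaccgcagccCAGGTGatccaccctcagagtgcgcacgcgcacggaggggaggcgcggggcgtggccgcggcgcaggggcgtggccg
Ezh2: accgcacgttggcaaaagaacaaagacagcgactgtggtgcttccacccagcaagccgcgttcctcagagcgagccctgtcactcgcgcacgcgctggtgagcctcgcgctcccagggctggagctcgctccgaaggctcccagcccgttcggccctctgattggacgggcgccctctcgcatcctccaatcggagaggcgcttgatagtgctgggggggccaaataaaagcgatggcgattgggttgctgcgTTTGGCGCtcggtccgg
Suz12: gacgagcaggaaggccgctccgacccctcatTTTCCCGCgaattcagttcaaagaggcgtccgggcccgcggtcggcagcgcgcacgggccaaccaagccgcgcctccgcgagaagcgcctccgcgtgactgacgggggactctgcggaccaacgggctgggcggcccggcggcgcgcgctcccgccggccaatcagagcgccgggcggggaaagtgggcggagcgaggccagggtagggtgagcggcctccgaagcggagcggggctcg
Phf19: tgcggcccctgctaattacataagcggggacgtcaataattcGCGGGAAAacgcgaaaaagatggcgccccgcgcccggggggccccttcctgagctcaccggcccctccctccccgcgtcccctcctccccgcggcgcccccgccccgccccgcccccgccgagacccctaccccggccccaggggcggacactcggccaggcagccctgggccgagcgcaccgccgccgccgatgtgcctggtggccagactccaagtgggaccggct

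The Ezh2 window held TTTGGCGC from base 254, at the start of transcription, and no E-box of any kind. The Ezh1 window held no E2F match and E-boxes from bases 174 and 194, CACCTG and CAGGTG, which are the same site read on either strand. Suz12 held TTTCCCGC from base 32 and no E-box, and Phf19 held GCGGGAAA, the other strand of TTTCCCGC, from base 43. E2F letters were thus in 3 of 12 member windows, against 2.26% of all 32851 windows of the table and 5.15% of the 8701 windows with at least 20 CpG dinucleotides, a class that held 10 of the 12. E-boxes of any kind were in 8 of the 12 windows and in 72.3% of all windows. CAGCTG was in 3 member windows (Rbbp7, Mtf2 and Jarid2) and in 16.3% of all, and CAGGTG in 2 (Ezh1 and Phf1) and in 20.2% of all. A match describes letters in the window and not binding.

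Expression is given as FPKM (fragments per kilobase of transcript and per unit of mapped fragments, a level per length), with 1 value per gene and condition. None of the sources used here gives read totals, so depth is unknown, and no spread over samples exists for a level. The SE of each log2 fold change is the one implied by the authors' test statistic. A gene is called where the authors marked it significant, at a q of at most 0.05. As a check of the labels, the myotube markers Myog, Myh3, Ckm and Actn2 were called higher in 4 of 4 cases by the authors' deposited table, and the 5 cycling cell markers were all called lower. Of the myoblast markers, Pax7 and Myf5, the latter at 55.4 and 14.4 FPKM, were called lower by the authors' deposited table, and Myod1, at 895 and 293, was not called. Markers of other cell types summed to at most 31.6 FPKM per list in either condition except for smooth muscle and pericytes, where Acta2, also made by differentiating myoblasts, was at 227 and 2025 FPKM and the pericyte marker Rgs5 at 73.1 and 7.72. Pdgfra, Cdh5, Kdr, Ptprc, Plin1, Adipoq and Sox10 were below 1 FPKM in both conditions, with Plin1 listed at 0 in both. Others of the same lists were higher, Itgam at 20.6 and 24.3 FPKM, Lpl at 13.6 and 4.36, Cd68 at 11.04 and 2.80 and Pecam1 at 4.62 and 0.213. Over these 6 lists, 10 of 18 markers were tested, 5 were called lower (Thy1, Pecam1, Cd68, Lpl and Rgs5) and 1 higher (Acta2) by the authors' deposited table, and their part in the results below was not tested. In RNA from whole cultures, fewer cells of a type and less RNA per cell cannot be told apart.

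Of the 10 PRC2 genes, 9 had a lower value in myotubes, and the exception was Ezh1. By the authors' deposited table, 4 of 9 tested members fell (Ezh2, Mtf2, Suz12 and Jarid2), against a background of 17.3% of all tested genes. None rose, against a background of 6.52%. The median log2 fold change of the 9 was -1.07, beside -0.41 for the 15416 tested genes above 0 in both conditions, 66.6% of which lay below 0. The whole table is therefore shifted toward lower values. After centring on that median, 2 members were lower (Ezh2 and Mtf2), against a background of 10.3%, and 1 higher (Ezh1), against 10.2%. After equalising upper quartiles the members' counts were again 2 lower, against 12.3%, and 1 higher, against 8.56%. At a q of at most 0.01 in the authors' deposited table, 2 members were lower, against 11.1%, and 0 higher, against 4.68%. The members were chosen with earlier results known, and with 1 value per condition these counts have no replicate check.

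**Figure D1:**
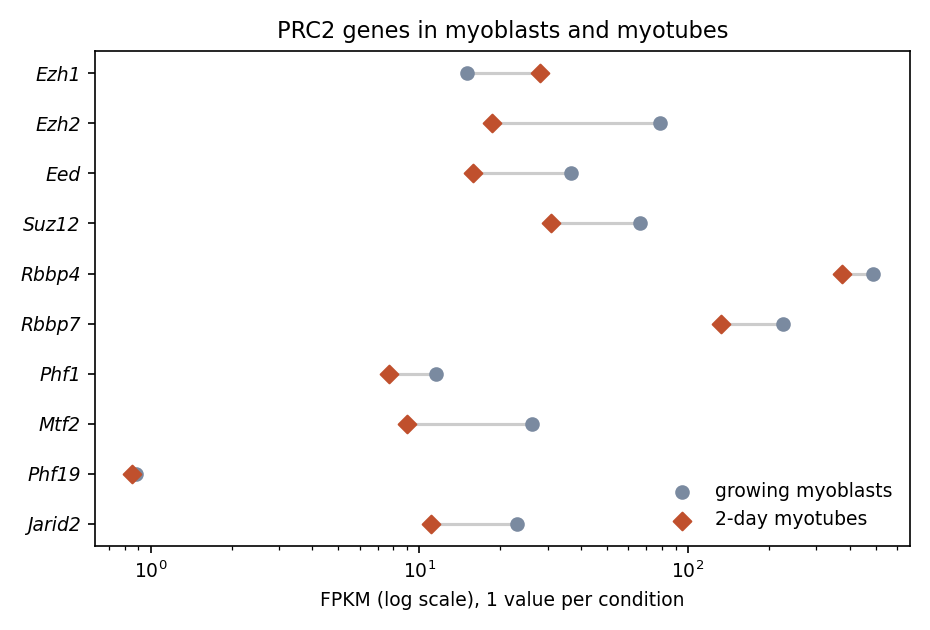
FPKM on a log axis of the 10 PRC2 genes in growing myoblasts (circles) and 2-day myotubes (diamonds), 1 value per condition. Ezh1 is the member whose myotube value, 28.1, lies to the right of its myoblast value, 15.01, while Ezh2 moves from 78.4 to 18.6 and Phf19 stays under 1 FPKM.

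By FPKM, at 1 value per gene and condition, the catalytic subunits changed places in rank. Ezh2 had 78.4 FPKM before and 18.6 after differentiation, and Ezh1 had 15.01 and 28.1. In myoblasts Ezh2 was thus 5.22 times as abundant as Ezh1 per length, and in myotubes Ezh1 was 1.51 times as abundant as Ezh2. These ratios within a condition carry no error. Ezh2 fell 4.21-fold (log2 -2.07, SE 0.28, q = 2.66e-11, the authors' deposited table), a change below that of 89.8% of tested genes. Ezh1 was 1.87-fold higher in myotubes, just short of a call (log2 0.90, SE 0.37, q = 0.0621, the authors' deposited table). Relative to the median of tested genes Ezh1 rose (log2 1.32, adjusted p = 0.00403, Benjamini-Hochberg, from the statistics of the authors' deposited table) and Ezh2 still fell (log2 -1.66, adjusted p = 1.91e-07).

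The difference between the paralogs does not depend on how the libraries were scaled, since a common shift cancels in it. The log2 fold change of Ezh1 minus that of Ezh2 was 2.98 (SE 0.47, 95% interval 2.06 to 3.90), a 7.88-fold change in their ratio with an interval of 4.16 to 14.9. The interval takes the errors of both genes as independent and rests on the authors' error model, since the table holds no values of single replicates. Of the 5 paralog differences compared, it was the 1 whose interval excluded 0. Of the summed FPKM of the pair, Ezh1 made up 16.1% in myoblasts and 60.1% in myotubes.

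The summed FPKM of Ezh1 and Ezh2 was 93.4 in myoblasts and 46.7 in myotubes, a ratio of 0.500. That is near the ratios of their obligate partners, Eed, which was 2.32-fold lower, and Suz12, 2.14-fold lower. Set against the catalytic sum, Suz12 was at 0.711 in myoblasts and 0.663 in myotubes, and Eed at 0.392 and 0.338. On the log2 scale these ratios moved by -0.10 and -0.21, less than the SEs of 0.43 and 0.53 of the changes of Suz12 and Eed themselves. Such a likeness was not particular to these partners, since the ratio of the accessory gene Jarid2 moved by -0.07 and that of Rbbp7 by 0.23. The ratios of Mtf2 and Rbbp4 moved further, by -0.55 and 0.62.

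**Figure D2:**
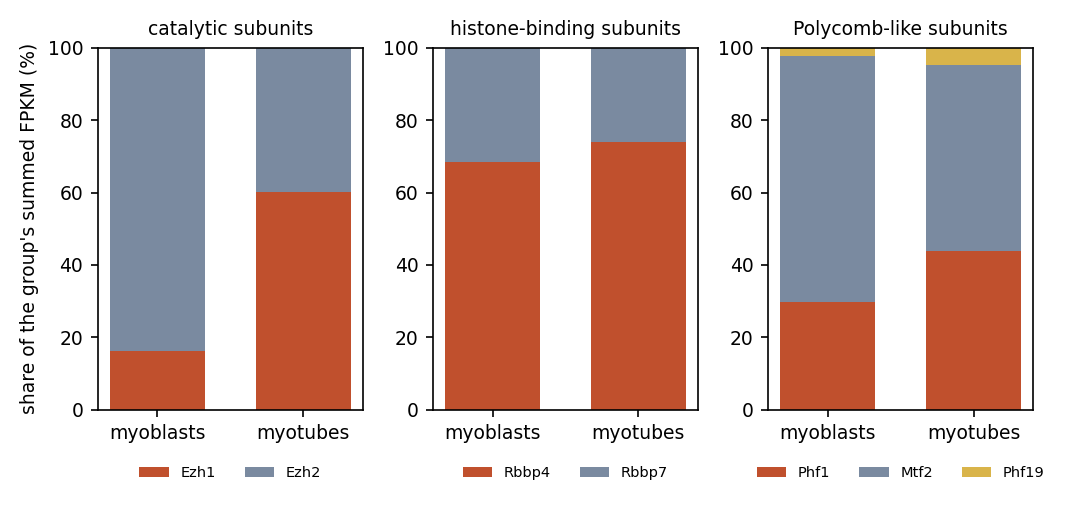
Share in percent of the summed FPKM of each group of alternative subunits, in myoblasts and myotubes. Ezh1 goes from 16.1% to 60.1% of the catalytic pair, while Rbbp4 stays the larger of the histone-binding pair and Mtf2 the largest of the Polycomb-like trio in both conditions.

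Among the core subunits, Suz12, the scaffold, had 66.4 FPKM before and 31.0 after differentiation. It fell 2.14-fold, close to the limit of a call (log2 -1.10, SE 0.43, q = 0.0458, the authors' deposited table). Eed, the reader of the mark, was at 36.6 and 15.8 FPKM and missed the call with a like fold and a larger error (log2 -1.21, SE 0.53, q = 0.082, the authors' deposited table). Relative to the median of tested genes neither passed, at adjusted p = 0.291 for Suz12 and 0.329 for Eed (Benjamini-Hochberg, from the statistics of the authors' deposited table). Suz12 and Eed are therefore called or not by small margins, unlike Ezh2.

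Rbbp4 and Rbbp7 were the most abundant members in both conditions. Rbbp4 had 487 FPKM before and 373 after differentiation (log2 -0.38, SE 0.46, q = 0.618, the authors' deposited table), and Rbbp7 at 225 and 132 (log2 -0.77, SE 0.43, q = 0.198, the authors' deposited table). Neither was called. Their difference, Rbbp7 minus Rbbp4, was -0.38 with a 95% interval of -1.61 to 0.85, so a difference of that size in either direction is not excluded by these data. Per length, Rbbp4 stood at 5.21 times the catalytic sum in myoblasts and 8.00 times in myotubes. As subunits of other complexes too, these genes hold levels that cannot be assigned to PRC2. Rbbp4 and Rbbp7 are close in sequence, and none of the sources used here says how reads that fit several places were shared.

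The Polycomb-like genes differed in level and in call. Mtf2 had 26.3 FPKM before and 8.97 after differentiation and fell 2.93-fold (log2 -1.55, SE 0.32, q = 1.93e-05, the authors' deposited table), a call that held relative to the median of tested genes (adjusted p = 0.00312, Benjamini-Hochberg, from the statistics of the authors' deposited table). Phf1 was at 11.6 and 7.68 FPKM and was not called (log2 -0.59, SE 0.69, q = 0.608, the authors' deposited table). Phf19, at 0.885 and 0.855 FPKM, was near the bottom of the table, below 96.2% of tested genes in myoblasts, and was not tested. Mtf2 made up 67.9% of the trio in myoblasts and 51.2% in myotubes, and Phf1 29.8% and 43.9%. The difference of Phf1 minus Mtf2 was 0.96 with a 95% interval of -0.53 to 2.45, which includes 0, as did the intervals of Phf1 minus Phf19 (-2.60 to 1.52) and Mtf2 minus Phf19 (-3.17 to 0.17). Mtf2 and Phf1 thus drew level in FPKM, at 8.97 and 7.68, without a difference in change that passed its error.

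Mtf2 shares its merged locus in the table with Tmed5, a gene of membrane traffic. Tmed5 had 26.8 FPKM before and 8.74 after differentiation (log2 -1.61, SE 0.51, q = 0.01, the authors' deposited table), almost the values of Mtf2. Rbbp4 shares its locus with Sync and Gm17525, and Rbbp7 with Txlng, and how reads from overlapping ends were divided was not tested. Without these 3 members, 3 of the 6 remaining tested members were called lower, against 17.8% of the 11115 tested genes that share no locus, and 0 higher, against 6.91%, an alternative chosen after seeing the data.

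Of the second form of the complex, Jarid2, a DNA- and nucleosome-binding cofactor, had 23.2 FPKM before and 11.1 after differentiation. It fell 2.10-fold (log2 -1.07, SE 0.41, q = 0.0389, the authors' deposited table), and lost the call relative to the median of tested genes (adjusted p = 0.285, Benjamini-Hochberg, from the statistics of the authors' deposited table). Its partner Aebp2, listed among the other PRC2 genes, was at 104 and 55.8 FPKM and fell (log2 -0.90, q = 0.00186, the authors' deposited table). The Polycomb-like trio summed to 38.8 and 17.5 FPKM (log2 of the sums -1.15), and Jarid2 with Aebp2 to 127 and 66.9 (log2 of the sums -0.93). These sums carry no error: of the trio only Mtf2 was called, and Aebp2, like Jarid2, lost its call relative to the median of tested genes (adjusted p = 0.157, Benjamini-Hochberg, from the statistics of the authors' deposited table).

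**Figure D3:**
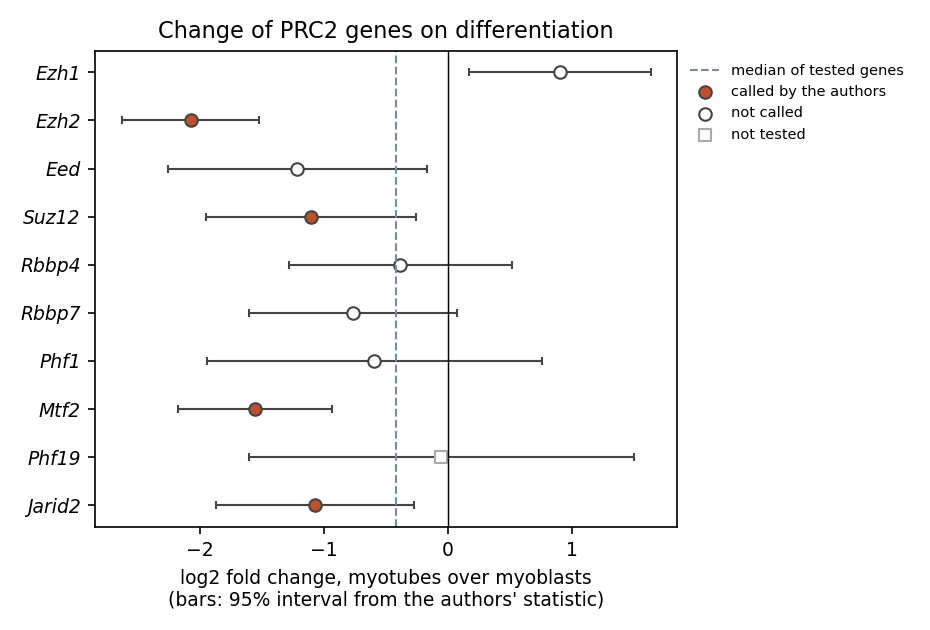
Authors' log2 fold change of each PRC2 gene, myotubes over myoblasts, with bars for the 95% interval from the implied SE, filled where called, and a dashed line at the median of tested genes, -0.41. Ezh1 at 0.90 is the member to the right of 0, and the bars of Ezh1, Ezh2 and Mtf2 lie clear of the dashed line.

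The genes nearest to the catalytic subunits in level and change were sought among 13647 tested genes of at least 1 FPKM in both conditions, by distance on the plane of the log2 FPKM values. With 2 conditions this measure says only that the pairs of values are alike. Nearest to Ezh2 were Sri, at 79.4 and 18.4 FPKM, Sox4 and Hmgn3, with distances of 0.026 to 0.082, and all 3 were called lower by the authors' deposited table. Nearest to Ezh1 were AW551984, at 15.4 and 28.6 FPKM, Dennd1a and Synrg, at distances of 0.046 to 0.075. Synrg alone of these was called higher by the authors' deposited table (q = 0.0229). Since these genes were picked for values like those of Ezh1, their calls add nothing about Ezh1 itself.

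Other genes of the Polycomb system were described from lists, by counts of calls and medians of log2((FPKM + 1) in myotubes over (FPKM + 1) in myoblasts), beside a median of -0.37 for all tested genes with a mean of at least 1 FPKM. Of the other PRC2 genes, 2 of 4 tested fell by the authors' deposited table, Aebp2 and Epop, against 17.3% of all tested genes. In this list 0 rose, against 6.52%. Epop, an accessory subunit listed under an older symbol, went from 1.46 to 0.326 FPKM (q = 0.0478, the authors' deposited table), and Lcor and Lcorl were at 2.64 to 4.48 FPKM without a call. No value can be given for Ezhip, an inhibitor of EZH2. The row looked up for it carried the symbol AU015836, and whether that symbol is Ezhip was not checked. It was at 0.194 and 0 FPKM, another row of AU015836 was at 0 in both conditions, and neither was tested. After centring on the median of tested genes, 0 of the list were called lower, against a background of 10.3%.

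PRC1, which binds the mark of PRC2 and ubiquitinates histone H2A, had 8 of 21 tested genes called lower by the authors' deposited table (38.1%), against 17.3% of all tested genes. It had 0 called higher, against 6.52%, and a median of -0.57. Relative to the median of tested genes 3 of the 21 were lower, against a background of 10.3%. Those called by the authors were Cbx6, Phc2, Phc1, Kdm2b, Pcgf2, Cbx2, Bmi1 and Scmh1. Cbx6 and Cbx2 encode chromodomain readers of the mark: Cbx6 went from 81.0 to 24.8 FPKM (log2 -1.71, q = 3.72e-05, the authors' deposited table) and Cbx2 from 12.8 to 3.29 (log2 -1.96, q = 0.0119, the authors' deposited table). Bmi1 and Pcgf2, alternative ring-finger partners of the ligase, went from 59.1 to 28.3 and from 24.2 to 7.87 FPKM. The ligase genes themselves were not called, Ring1 at 19.7 and 23.7 FPKM and Rnf2 at 23.6 and 15.8. The readers Cbx7, at 4.72 and 4.57, and Cbx8, at 72.0 and 41.7 FPKM, were not called either. For Cbx7 (log2 -0.05, SE 0.59) and still more for Cbx8 (log2 -0.79, SE 1.31), a change in either direction is not excluded.

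Enzymes that remove the marks showed no call. Of the H3K27 demethylases, Kdm6a was at 10.4 and 8.89 FPKM and Kdm6b at 12.7 and 13.1 (log2 -0.23 and 0.04, q = 0.83 and 0.974, the authors' deposited table). Kdm6b has been described as acting at muscle genes on differentiation. Its values were close in both libraries, but with an SE of 0.61 a change in either direction is not excluded. Of the deubiquitinase PR-DUB, 0 of 5 tested genes were called, beside 17.3% of all tested genes called lower and 6.52% higher. Bap1 was at 18.5 and 22.5 FPKM and Asxl1 at 32.6 and 30.9.

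**Figure D4:**
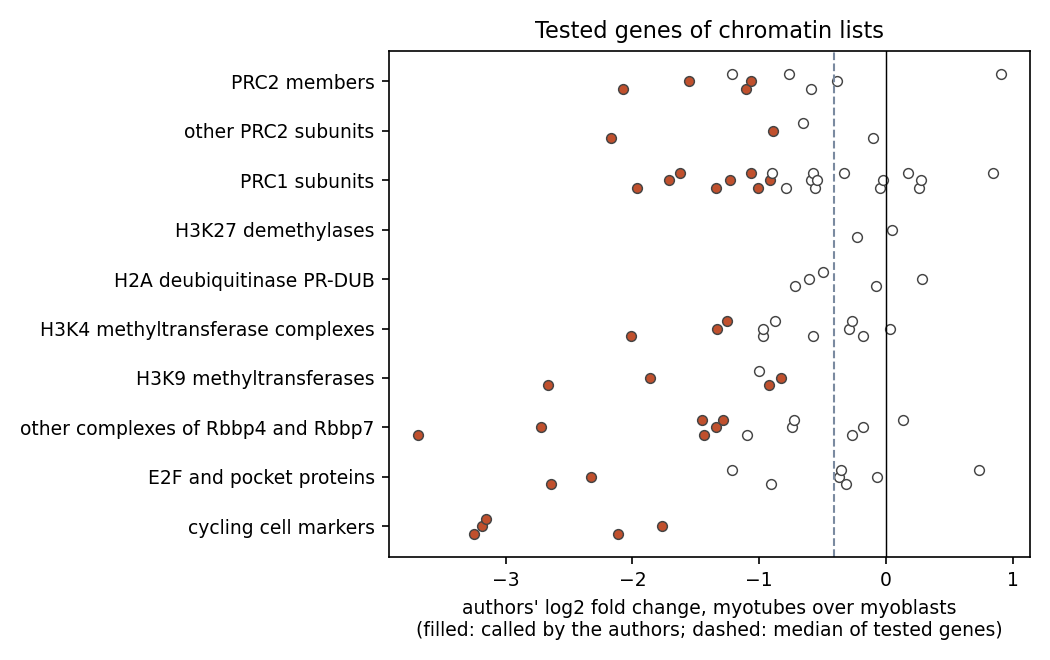
Authors' log2 fold change of each tested gene in 10 lists, filled where called, with a dashed line at -0.41, the median of tested genes. No gene shown is called higher, the cycling cell markers lie furthest to the left as a group, and the demethylases and PR-DUB hold no call.

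The cycling cell markers and some E2F and pocket protein genes were lower alongside Ezh2. E2f1, a factor that drives Ezh2 and Eed in dividing cells, went from 27.3 to 5.45 FPKM (log2 -2.32, q = 7.71e-06, the authors' deposited table), and Rbl1, a pocket protein of the same family of regulators as Rb1, from 15.7 to 2.52 (log2 -2.64, q = 6.73e-05, the authors' deposited table). These were the 2 of 9 tested E2F and pocket protein genes called lower by the authors' deposited table (22.2%), near the 17.3% of all tested genes. In the same list 0 were called higher, against 6.52%. The median of the list was -0.36, beside -0.37 for all tested genes with a mean of at least 1 FPKM, so as a group it moved like the whole table. Rb1 was at 38.2 and 63.6 FPKM (q = 0.173, the authors' deposited table) and was higher relative to the median of tested genes (adjusted p = 0.0213, Benjamini-Hochberg, from the statistics of the authors' deposited table). After centring the list thus had 2 lower, against a background of 10.3%, and 1 higher, against 10.2%. E2f6, a repressor, was at 125 and 119 FPKM and E2f4 at 50.8 and 27.1, neither called. The cycling cell markers summed to 480 FPKM in myoblasts and 93.2 in myotubes, with Pcna at log2 -1.77, Mcm2 at -2.12, Top2a at -3.15, Mki67 at -3.18 and Ccna2 at -3.25. Ezh2, at -2.07, lay between Pcna and Mcm2. The part of cell cycle exit in the change of Ezh2 was not tested.

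Rbbp4 and Rbbp7 also serve in histone deacetylase, NuRD and chromatin assembly complexes. Of 12 tested genes of these, 6 were called lower by the authors' deposited table (50%), against 17.3% of all tested genes. Of the 12, 0 were called higher, against 6.52%, and their median was -1.17. After centring on the median of tested genes 3 were lower, against a background of 10.3%, and Hat1, Hdac1 and Mta3 lost the call. The chromatin assembly genes Chaf1b, from 56.6 to 4.39 FPKM (log2 -3.69, q = 4.14e-12, the authors' deposited table), and Chaf1a, from 25.6 to 3.89 (log2 -2.72, q = 0.0017, the authors' deposited table), fell most. Hat1, Hdac1, Mta3 and Sin3a were the other 4. The NuRD genes Chd4, at 170 and 141 FPKM, and Mbd3, at 213 and 233, were not called, like Rbbp4 and Rbbp7 themselves, nor was Hdac2, at 107 and 94.2.

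Genes described with EZH2 or EZH1 in muscle, as targets or as a partner, changed in either direction. Myh4, a fast myosin heavy chain, rose from 4.02 to 90.6 FPKM (log2 4.50, q = 4.66e-14, the authors' deposited table), and Ckm and Myog rose too. Pax7, a satellite cell factor described as a PRC2 target in differentiating cells, fell from 48.5 to 6.71 FPKM. Yy1, a DNA-binding partner described with EZH2 at muscle genes, was at 58.1 and 46.1 FPKM and was not called (q = 0.603, the authors' deposited table). The list of 5 had 3 called higher by the authors' deposited table, against 6.52% of all tested genes, and 1 lower, against 17.3%. Binding of PRC2 to these genes was not measured in the samples used here.

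MyoD peaks were joined to the members through the loci of the expression table (mm9), counting a peak whose summit lay in the locus or within 10 kb. The list held 10756 peaks with a median of 14 tags and a median fold enrichment of 15.3, and these values are the authors' own per peak. Of the 10 members 3 had a peak, Rbbp4, Jarid2 and Phf19. Of the 9 tested members 2 had one (22.2%), against a background of 38.8% of tested genes, although the loci of the members were longer, with a median of 44387 bp beside 26380.5 bp. Within 50 kb, 8 of the 10 members had a peak, and 7 of the 9 tested (77.8%), against 59.9% of tested genes. With a false discovery rate of at most 5%, Jarid2 and Phf19 kept a peak, 1 of 9 tested members (11.1%), against 11.7%. No member had a summit within 4 kb of the end of its locus where transcription starts by the RefSeq strand.

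Neither catalytic gene had a peak by this rule. The start region of Ezh1 held the pair of E-boxes shown above, and the summit nearest to its locus (chr11:101052428-101087777) lay 95570 bp away, with 35 tags. That nearest to Ezh2 (chr6:47480272-47545340) lay 25777 bp before its start, with 7 tags, the lowest tag number in the list, a fold enrichment of 15.99 and a false discovery rate of 23.8%. Suz12 (chr11:79806607-79847625), Mtf2 (chr5:108494692-108561639) and Eed (chr7:97103165-97129493) had their nearest summits 30881, 17462 and 12362 bp before the start, with 12, 10 and 8 tags. Phf1 (chr17:27070071-27074835) had its nearest 16053 bp beyond the far end, with 10 tags, and Rbbp7 (chrX:159198333-159267386) at 58982 bp, with 13. These peaks held no more tags than the median peak except that near Ezh1.

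Jarid2 (chr13:44824842-45017012), the longest locus of the set at 192171 bp, held both of its summits inside. That at chr13:44881760-44881994 had 8 tags and a fold enrichment of 28.8, higher than 91.7% of peaks, and lay 57007 bp from the start. That at chr13:44997731-44998245 had 25 tags, a fold enrichment of 13.6 and a false discovery rate of 3.92%. Phf19 (chr2:34749276-34771534) had 1 peak, chr2:34775610-34776115, with its summit 4436 bp before the start, 35 tags, a fold enrichment of 16.5 and a false discovery rate of 2.93%. Phf19 was thus the member with a MyoD peak nearest its start and the member with the lowest RNA in both conditions. The limit of 10 kb fell between this peak and that of Eed at 12362 bp.

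Rbbp4 (chr4:128964860-129012614) had 3 peaks, all at the end of its locus far from its start. The largest, chr4:128964147-128966096, had 85 tags, more than 99.8% of peaks, a fold enrichment of 8.72 and a false discovery rate of 6.42%, and its summit lay 387 bp outside the locus and 48141 bp from the Rbbp4 start. The others had 35 and 7 tags. In the RefSeq gene order Sync, which encodes an intermediate filament protein of muscle, lies at that end on the opposite strand, so that its start is the one next to these peaks. Sync had 50.3 FPKM before and 85.2 after differentiation, without a call (log2 0.76, SE 0.33, q = 0.0763, the authors' deposited table). RefSeq gives the Rbbp4 gene a length of 28271 bp (GRCm38.p6), and the 3 summits lay 41603 to 49161 bp from its start, so they count for Rbbp4 only because the table merges it with Sync in 1 locus.

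**Figure D5:**
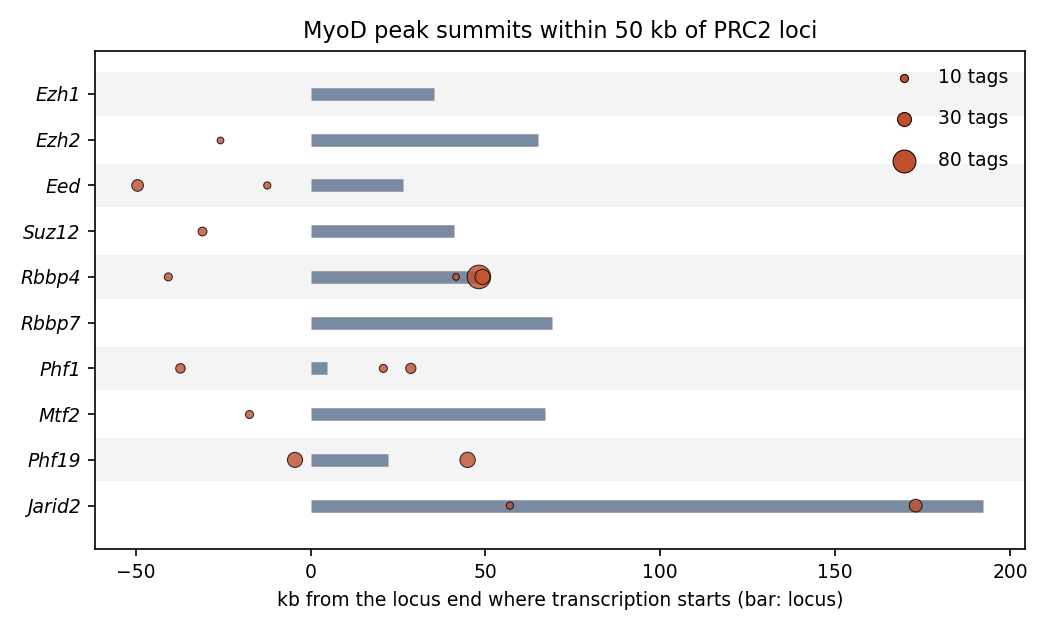
Summits of MyoD peaks (circles, area by tags) within 50 kb of each PRC2 locus, in kb from the end of the locus where transcription starts, with the locus as a bar. Ezh1 and Rbbp7 have none in this range, and the 85-tag peak of Rbbp4 sits at the far end of its bar, 48141 bp from the start.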

How the data were processed

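Polyadenylated RNA of empty-vector myoblasts and 2-day myotubes and a MyoD ChIP of 2-day myotubes were used, each group 1 sample. The expression table was deposited in 2 identical copies and 1 was used. The authors deposited FPKM values with log2 fold changes, p-values and q-values from Cuffdiff, which the submitters' processing notes name with CASAVA 1.7.0 and mm9. None of the sources used here gives the aligner, annotation or normalization setting. Sequencing in duplicates is stated per the labels' protocols, but the table holds 1 value per condition. Peaks were called with MACS, version 1.3.7 in the submitters' processing notes, from 4049890 unique ChIP tags and 4371189 unique control tags, per the file headers. The tag number of a peak is a count of ChIP tags, per the file headers. Fold enrichment is a ratio to the control background, per the file headers. Peaks carry a false discovery rate in percent and a p score on a log10 scale, per the file headers.

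The SE was the ratio of the log2 fold change to the test statistic, both as deposited, and p-values recomputed from that statistic differed from the deposited ones by at most 2.68e-06. Centred log2 fold changes had the median of 15416 tested genes removed, or were shifted to equal upper quartiles, with p from the SE and Benjamini-Hochberg adjustment over all of them. Intervals are 1.96 SE either way. Named genes were all members, every called gene of each list and at most 3 uncalled ones with the highest mean FPKM, with some others (Ring1, Rnf2, Cbx7, Hdac2 and markers near 0) picked after their values were seen. The members, the lists and the tests were chosen with earlier results of these data known. The steps over all genes were tested on simulated data. Python 3.11.15, scipy 1.17.1 and pandas 2.3.3 were used. Promoter windows came from RefSeq (GRCm38.p6), a build apart from that of the peaks, and the mm9 sequence under the peaks was not analysed here.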

Additional observations from a re-analysis of the deposited data

How the results depend on the processing

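The deposited scaling and call threshold set how many PRC2 genes were called. Beside 4 lower and 0 higher as deposited, centring on the median left 2 lower (Ezh2 and Mtf2) and gave 1 higher (Ezh1). Equal upper quartiles, a shift of 0.26, gave 2 lower and 1 higher. A q of at most 0.01 left 2 lower and 0 higher. Rbbp4 turned from -0.38 to 0.031 after centring, an uncalled value in either case. The pseudocount of 1 moved the Ezh1 minus Ezh2 difference from 2.98 to 2.88. Of 18 values of tested members under the other scalings, 11 kept direction and call, and 7 changed, namely Suz12, Jarid2 and Ezh1 under both and Rbbp4. Pseudocounts of 1 and 0.1, which give no call, kept the direction in 20 of 20. A window of 50 kb gave 8 members with a peak. Peaks with a false discovery rate of at most 5% or a p score of at least 100 left 2 members with a peak, Jarid2 and Phf19. For the p score that is 1 of 9 tested members (11.1%), near the 12.1% of all tested genes. No paired analysis was possible because each group has 1 sample, and for the same reason none could be left out. Depth is unknown for RNA, and 7 tags is the lowest peak in the list, so weak binding near these genes may be missed.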

Other observations

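Genes of other histone methyltransferases were called lower in part. Of 5 H3K9 methyltransferase genes 4 were called lower by the authors' deposited table (80%), against 17.3% of all tested genes. Of these 5, 0 were called higher, against 6.52%, and their median was -0.94. After centring on the median of tested genes 2 were lower, against a background of 10.3%. Suv39h1, known to hold muscle genes silent in myoblasts, went from 48.6 to 13.4 FPKM (log2 -1.86, q = 0.00027, the authors' deposited table), and its paralog Suv39h2 from 6.30 to 0.99 (log2 -2.67, q = 7e-05, the authors' deposited table). Ehmt2 and Ehmt1, partners in 1 enzyme, went from 131 to 73.7 and from 64.1 to 33.9 FPKM, and Setdb1, at 21.6 and 10.8, was not called. Of 11 genes of the H3K4 methyltransferase complexes, which oppose Polycomb, 3 were called lower by the authors' deposited table (27.3%), against 17.3% of all tested genes. Of the same genes 0 were called higher, against 6.52%. After centring 1 was lower, against a background of 10.3%. The 3 called by the authors were Kmt2a, from 18.9 to 4.68 FPKM (log2 -2.01, q = 0.0027, the authors' deposited table), Kmt2b and Men1. The shared subunits Wdr5, at 43.9 and 44.8 FPKM, Ash2l, at 69.7 and 61.5, and Dpy30, at 63.5 and 32.3, were not called.

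Of 6 rows for miRNA genes described to act on Ezh2, 5 were listed at 0 in both conditions. Mir214 had 110 FPKM before and 30.4 after differentiation, with too little data for a test by the authors' status. These libraries were made from polyadenylated RNA, and such a row does not measure the mature miRNA.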
